A study of Caenorhabditis elegans with 24 samples.

Results

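The genes described here are 8 tubulin genes (tba-1, tba-2, tba-4 and mec-12, which encode alpha-tubulins, and tbb-1, tbb-2, tbb-4 and mec-7, which encode beta-tubulins) and 2 genes for proteins that organise microtubule minus ends, ptrn-1 and noca-1. They were chosen by symbol, with no measured value in the rule, and make up 10 of the 46778 gene IDs in the count table. All 10 passed the filter on low counts that left 16887 genes for testing.

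Microtubules are polymers of alpha- and beta-tubulin dimers, and most animals carry several genes, called isotypes, for each. In many differentiated cells microtubules do not start from centrosomes. Their minus ends are instead held by other proteins: PTRN-1, the worm member of the CAMSAP/Patronin family, binds and protects free minus ends, and NOCA-1, a ninein-related protein, acts with gamma-tubulin in parallel to PTRN-1 in the worm epidermis. Distal tip cells (DTCs) are the somatic cells at the tips of the C. elegans gonad arms. They lead the growing arms through the larval stages and, through the Notch ligand LAG-2, keep germline stem cells dividing.

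Polyadenylated RNA was sequenced from cells of wild-type hermaphrodites grown at 20 °C on OP50 bacteria, in larvae (late L3, early L4 and late L4) and adults. Cells positive for the fluorescent protein Venus, labelled DTC, and non-fluorescent cells, labelled as the remaining worm tissue, were collected separately. Each of the 8 groups has 3 libraries (24 in all), made from 30000 to 60000 cells each. By their labels the groups differ in fraction and stage only; the promoter that drove Venus is not given in the sources used here, and whether the 3 samples of a group were grown apart is not stated, and the p-values therefore speak only to the variation among these libraries, which may be technical.

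Total counts per library ran from 8391423 to 18045720. Ribosomal RNA made up 7.25% to 33.2% of them. It was at 11.2%, 33.2% and 32.6% in the adult libraries of other cells and at 13.7% to 16.9% in adult DTCs. Where counts are set against totals below, the totals include it. The label was checked with lag-2, which lay between 46.8 and 341 CPM (read count scaled to library size) in the 12 DTC libraries and at or below 2.78 CPM in the 12 libraries of other cells; all 8 listed DTC markers were higher in the DTC fraction in the mean of the 4 stages. Their summed level was 1797 to 2780 CPM in larval DTCs against 134 to 242 CPM in larval other cells, but 615 to 923 CPM against 305 to 738 CPM in adults, where the fractions overlapped. The DTC fraction was not free of other tissue. In adults the summed level of 10 body wall muscle genes was 39639 to 51093 CPM in it, above the 28116 to 30937 CPM of other cells. It was below other cells at late L3 (13491.5 to 16053 against 25115 to 27324 CPM) and late L4 (23535 to 30953 against 31620 to 51827 CPM). At early L4 the fractions overlapped (11556 to 15339 and 14311 to 17448 CPM). The 8 genes listed for gonadal sheath and spermatheca summed higher in the DTC fraction at all 4 stages, in adults at 1175 to 2722 against 569 to 750 CPM. Sample 3 of other cells at late L3 stood apart: its summed hypodermal markers were at 1307 CPM against 8791 and 9626 CPM in samples 1 and 2, and its summed sperm markers at 990 CPM against 8.96 and 13.7 CPM. Sample 3 of DTCs at late L3 and of both fractions at late L4 was also low in hypodermal markers. The results are therefore given below without these 4 libraries wherever that changes a call. DTC sample 3 of early L4 was low too, though less so, at 505 CPM against 980 and 1241 CPM. Its summed sperm markers were at 131 CPM against 592 and 502 CPM. That library is not among the 4.

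The 2 minus-end genes showed the widest gap between the fractions among these genes at each larval stage and in the mean of the 4 stages. ptrn-1 was higher in DTCs at each larval stage, 52.4-fold at early L4, and noca-1 was higher at all 4 stages, 7.45-fold at early L4. Both fell in DTCs between late L4 and adulthood, ptrn-1 by 7.55-fold. In bulk samples such as these, fewer cells of a type and less RNA per cell cannot be told apart.

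ptrn-1 (chromosome X, 17021820 to 17030219, minus strand, ce11; 4 annotated coding transcripts) stood at 326, 306 and 757 CPM in the 3 DTC libraries of late L3. It was at 678, 663 and 860 CPM at early L4, 362, 358 and 577 CPM at late L4, and 47.8, 77.1 and 47.0 CPM in adults. Late L3 overlapped both early L4 and late L4, which were separate from each other, and the adult DTC libraries lay below every larval one. In other cells ptrn-1 was at 30.9, 34.5 and 14.6 CPM at late L3, 12.3, 13.6 and 16.1 CPM at early L4, 24.1, 18.6 and 22.5 CPM at late L4, and 26.8, 36.7 and 18.4 CPM in adults. With the TMM scaling factors used here, every DTC library was above every library of other cells at the same stage, in adults too. Without these factors the adult fractions overlapped: DTC sample 1 held 515 of 17496455 counts, and sample 1 of other cells 437 of 13200254. The log2 fold change, DTCs over other cells, was 4.12 ± 0.41 (SE) at late L3 (edgeR quasi-likelihood test, adjusted p = 2.35e-06). It was 5.71 ± 0.45 at early L4 (adjusted p = 6.79e-08) and 4.31 ± 0.42 at late L4 (adjusted p = 1.1e-06). In adults the value of 1.07 ± 0.37 did not pass the threshold of 0.05 (adjusted p = 0.0619); it did with median-ratio size factors (1.13, adjusted p = 0.0469), with DESeq2 (adjusted p = 0.0182) and without the 4 libraries named above (adjusted p = 0.0118).

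noca-1 (chromosome V, 13152919 to 13176115, plus strand; 9 annotated coding transcripts) stood at 543, 506 and 1143 CPM in DTCs at late L3. It was at 897, 787 and 1033 CPM at early L4, 666, 576 and 769 CPM at late L4, and 283, 248 and 239 CPM in adults. The other cells stayed in a narrow band, from the lowest library at 98.2 CPM (early L4) to the highest at 169 CPM (late L4), and their 4 group means lay between 121 and 152 CPM. The order of the DTC group means was the same as for ptrn-1: early L4, late L3, late L4, adults. Late L3 overlapped both other larval groups, and early L4 (lowest library 787 CPM) and late L4 (highest 769 CPM) were separate. With TMM scaling the adult DTCs were separate from both the larval DTCs and all other cells. Without it the adult fractions overlapped: DTC sample 3 held 1300 of 9070374 counts, and sample 1 of other cells 2718 of 13200254. The log2 fold change was 2.27 ± 0.29 for late L3 (adjusted p = 3.39e-05), 2.90 ± 0.29 for early L4 (adjusted p = 1.1e-06), 2.26 ± 0.29 for late L4 (adjusted p = 1.84e-05) and 0.87 ± 0.28 for adults (adjusted p = 0.0418). The adult call was lost on leaving out any 1 of the 6 adult libraries (adjusted p 0.0719 to 0.207), so it needed all 6.

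**Figure D1:**
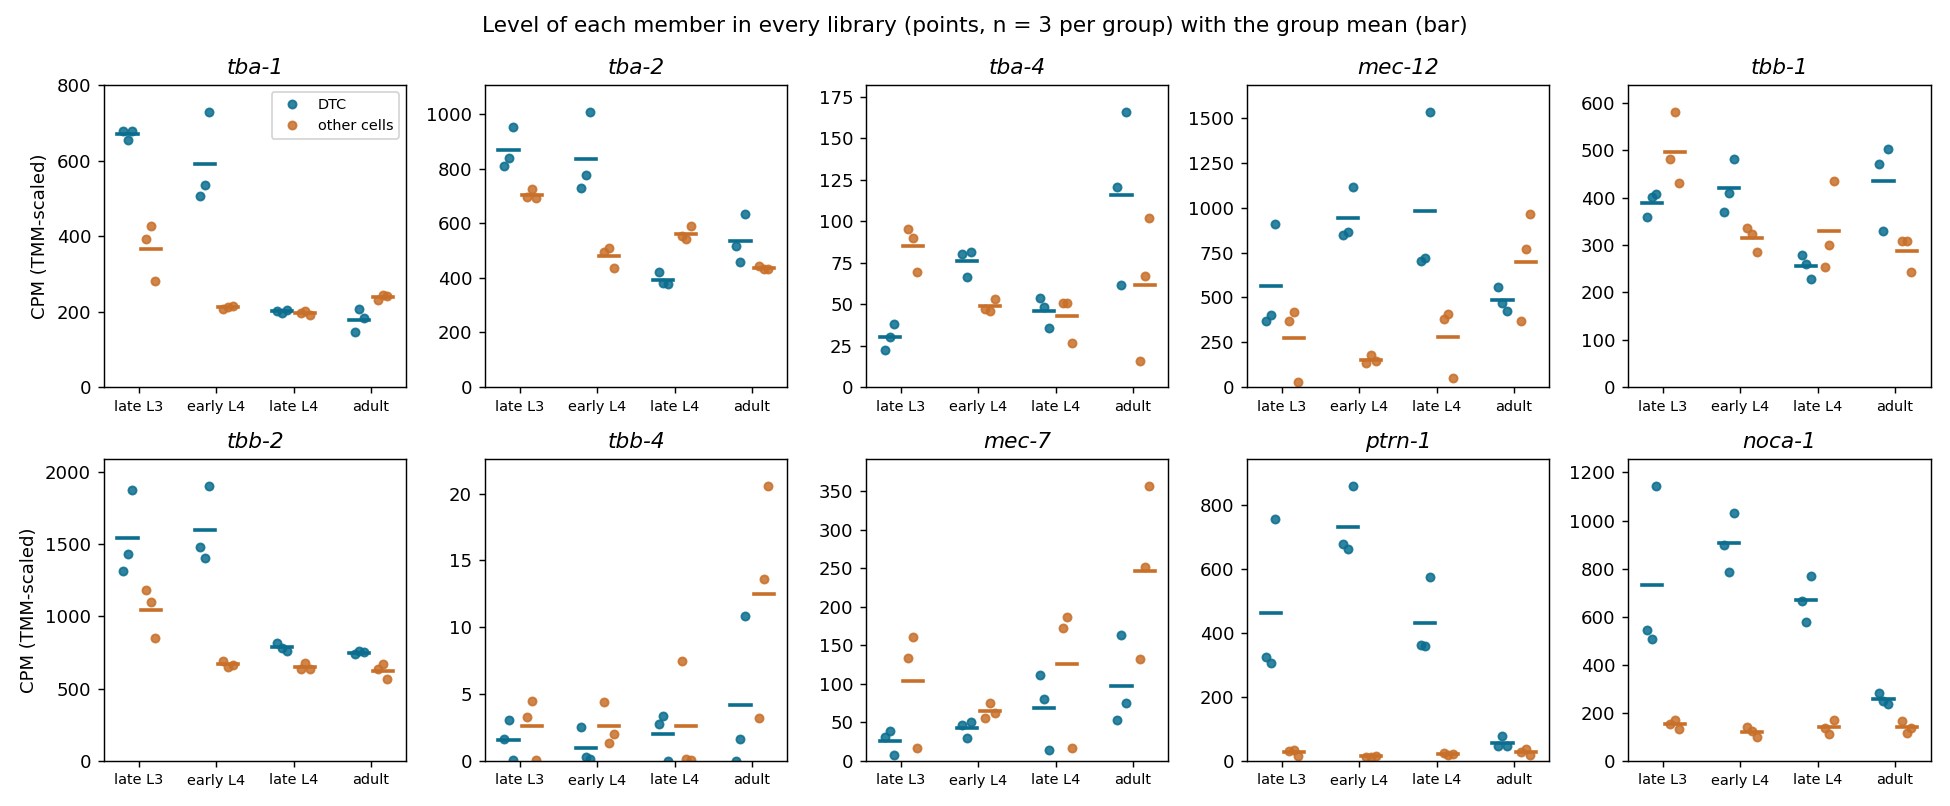
Level of each of the 10 genes in every library (points, TMM-scaled CPM, linear axes from 0) with the group mean (bar), for DTCs (blue) and other cells (orange) at 4 stages, n = 3 per group. The larval DTC libraries of ptrn-1 lie between 306 and 860 CPM while all libraries of other cells lie at or below 36.7 CPM; mec-12, mec-7 and tbb-4 show single libraries far from the others of their group.

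DTC sample 3 at late L3 was high for both genes, and so was its lag-2 (256 CPM against 181 and 167 CPM). The same held for DTC sample 3 at late L4, where ptrn-1 was at 577 CPM and lag-2 at 341 CPM, against 251 and 218 CPM for lag-2 in samples 1 and 2. The part of DTC content in these levels was not tested. Between late L4 and adulthood lag-2 in DTCs also went from 218 to 341 CPM down to 46.8 to 54.3 CPM, as the mean summed DTC markers went from 2383 to 776 CPM. Over the same step the mean summed levels in the DTC fraction went from 26356 to 43962 CPM for body wall muscle markers. They went from 588 to 1473 CPM for neuron markers and from 1292 to 2465 CPM for hypodermal markers. The 8 genes listed for gonadal sheath and spermatheca went from 701 to 1762 CPM as a sum. That sum does not show which of its genes rose. ceh-18 did not: its DTC libraries were at 30.6 to 45.2 CPM at late L4 and 15.6 to 33.6 CPM in adults. The part of these marker lists in the adult values of ptrn-1 and noca-1 was likewise not tested. Without sample 3 of late L3 and late L4 in both fractions, ptrn-1 in DTCs rose between late L3 and early L4 (log2 fold change 1.22 ± 0.30, adjusted p = 0.0244) and fell between early and late L4 (−1.03 ± 0.30, adjusted p = 0.0437); with all libraries neither step was called.

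The ratio of noca-1 to ptrn-1, each per kilobase of exon, was 0.782 to 1.21 in the 9 larval DTC libraries. It was 2.12 to 3.91 in the 3 adult DTC libraries and 2.06 to 7.55 in the 12 libraries of other cells. On this per-length scale the 2 mRNAs were thus at like levels in larval DTCs, and noca-1 was above ptrn-1 in every other library. This depends on the length used. Merged exons span 5777 bp for noca-1 and 3807 bp for ptrn-1, but the longest coding sequences 2766 and 3336 bp. In CPM, with no length, noca-1 was above ptrn-1 in every library, and coding lengths would widen that gap. Over the 8 group means of log2 CPM, each of the 2 genes was the one most like the other among 8141 genes with a mean of at least 10 CPM (Pearson r = 0.997). The next most like ptrn-1 were rbr-2 (0.995), C53D6.6 (0.9948), nhx-5 (0.992) and chil-10 (0.9915). For noca-1 they were soem-1 (0.9957), C53D6.6 (0.9941), zag-1 (0.994) and Y67D8A.2 (0.9934). These r values describe 8 points that come from the same 24 libraries and lie mostly in a larval DTC and a low cluster, so they carry no p.

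**Figure D2:**
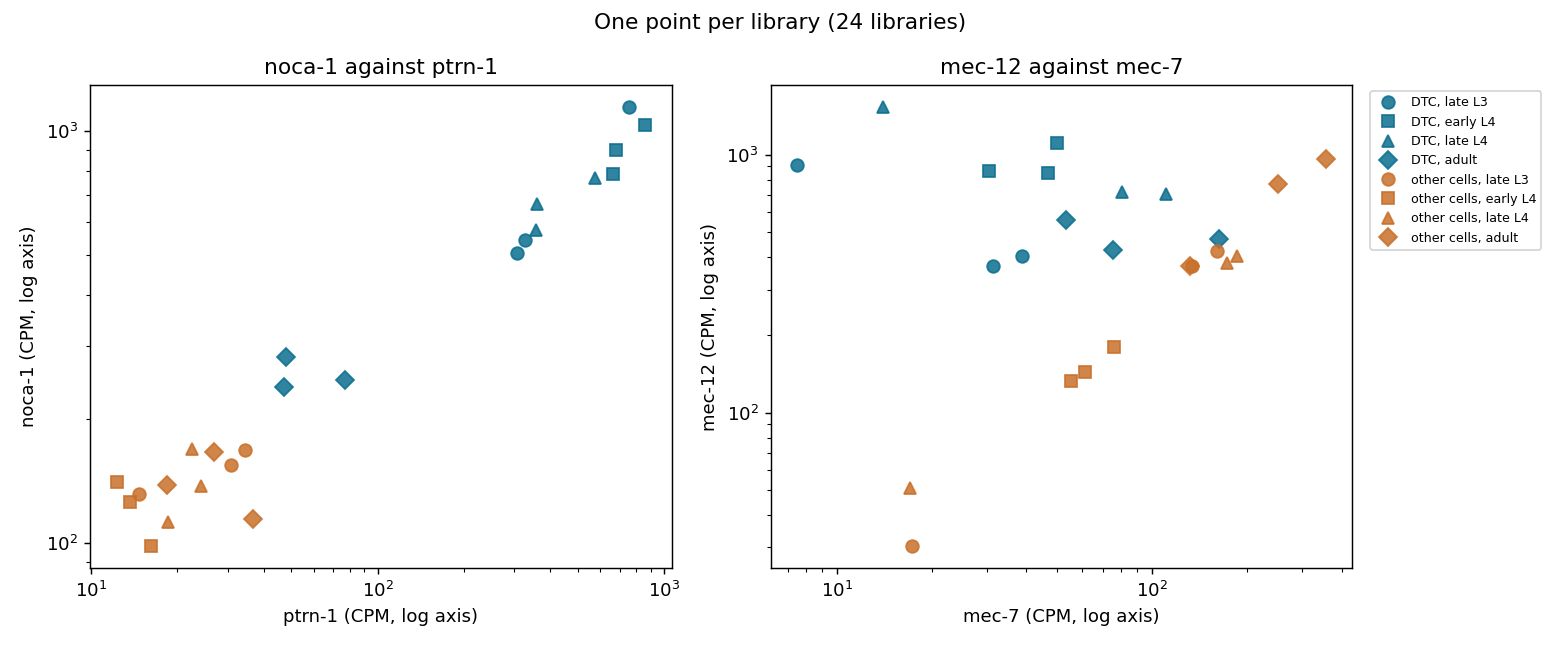
Each point is 1 of 24 libraries, with CPM on log axes; colour gives the fraction and shape the stage. Left, noca-1 against ptrn-1, with the 3 adult DTC libraries (ptrn-1 47.0 to 77.1 CPM) between the larval DTCs and the other cells; right, mec-12 against mec-7, where the other cells follow 1 line and the DTC libraries lie above it, all but adult sample 2.

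Among the broadly expressed alpha-tubulins, tba-1 and tba-2, which serve many cell types and the spindles of the germline and embryo, were higher in DTCs at early L4 and fell in DTCs from early to late L4. tba-1 was also higher in DTCs at late L3. Their sequences are close to each other. How the submitters' counting treated reads that match both, by dropping or assigning them, is not known here. Each single value is uncertain in that way.

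tba-1 (chromosome I, 9785781 to 9787624, minus strand) was at 680, 656 and 678 CPM in DTCs at late L3, 507, 536 and 728 CPM at early L4, 201, 196 and 206 CPM at late L4, and 145, 208 and 182 CPM in adults. In other cells it was at 391, 428 and 281 CPM at late L3, 207, 214 and 215 CPM at early L4, 196, 201 and 191 CPM at late L4, and 230, 244 and 240 CPM in adults. The DTC libraries lay above the other cells at late L3 and early L4, overlapped them at late L4 and lay below them in adults. The log2 fold change was 0.87 ± 0.19 at late L3 (adjusted p = 0.00562) and 1.48 ± 0.20 at early L4 (adjusted p = 2.8e-05). The late L3 call was lost with median-ratio size factors (0.57, adjusted p = 0.0519), with no low-count filter (adjusted p = 0.0687), with the 2 groups fitted alone (adjusted p = 0.0704) and without the 4 libraries (adjusted p = 0.0821). The adult value of −0.42 did not pass (adjusted p = 0.158) but did without DTC sample 2 of the adults (−0.72, adjusted p = 0.0235). From early to late L4 tba-1 in DTCs fell 2.94-fold (log2 fold change −1.56 ± 0.20, adjusted p = 5.78e-05).

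tba-2 (chromosome I, 12964674 to 12966795, minus strand) was at 810, 839 and 952 CPM in DTCs at late L3, 728, 775 and 1006 CPM at early L4, 423, 381 and 376 CPM at late L4, and 516, 459 and 635 CPM in adults. In other cells it was at 695, 726 and 691 CPM at late L3, 496, 508 and 437 CPM at early L4, 553, 541 and 591 CPM at late L4, and 443, 432 and 432 CPM in adults. With TMM scaling the fractions did not overlap at any stage: the DTCs were above the other cells at late L3, early L4 and adulthood, and below them at late L4. Without it they overlapped at early L4: DTC sample 1 held 9098 of 12527543 counts, and sample 2 of other cells 12966 of 17362059. The adult fractions overlapped then as well: DTC sample 1 held 5565 of 17496455 counts, and sample 1 of other cells 7219 of 13200254. Only the early L4 difference was called (log2 fold change 0.80 ± 0.18, adjusted p = 0.00435); it was lost with median-ratio size factors (0.51, adjusted p = 0.0695) and no low-count filter (adjusted p = 0.108). It was also lost without DTC sample 3 (0.41, adjusted p = 0.254) or without sample 3 of the other cells (0.44, adjusted p = 0.201) of that stage. The late L4 value of −0.51 (adjusted p = 0.0672) passed with median-ratio size factors (−0.74, adjusted p = 0.00754) and with DESeq2. From early to late L4 tba-2 in DTCs fell 2.13-fold (−1.09 ± 0.18, adjusted p = 0.000756).

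tba-4 (chromosome II, 10918706 to 10920211, plus strand), another broadly expressed alpha-tubulin, ran at a lower level. It was at 22.4, 30.1 and 38 CPM in DTCs and 95.4, 90.2 and 69.6 CPM in other cells at late L3, the one stage at which it was called lower in DTCs (log2 fold change −1.49 ± 0.47, adjusted p = 0.0384). That call was lost without any 1 of 5 of the 6 late L3 libraries, all but DTC sample 3 (−1.3 to −1.62, adjusted p 0.0558 to 0.147), without the 4 libraries (adjusted p = 0.0686) and with a replicate block within stage (−1.52 ± 0.46, adjusted p = 0.0596). At early L4, with TMM scaling, the DTC libraries (66.4 to 81.3 CPM) lay above those of other cells (45.8 to 53.4 CPM). This difference of 0.64 did not pass (adjusted p = 0.395). Without that scaling they overlapped: DTC sample 2 held 1181 of 18000822 counts, and sample 3 of other cells 1309 of 17576836. At late L4 and in adults the fractions overlapped; the adult DTC libraries ranged from 61.9 to 166 CPM and those of other cells from 15.8 to 102 CPM.

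The beta-tubulin tbb-2, the more abundant of the pair of broadly expressed beta isotypes, was higher in DTCs at early L4. With TMM scaling its DTC libraries lay above those of other cells at every stage. Without it they overlapped in adults: DTC sample 1 held 7963 of 17496455 counts, and sample 1 of other cells 10385 of 13200254. At late L4 DTC sample 3 held 8887 of 13419200 counts and sample 2 of other cells 9510 of 12224023, an overlap as well. tbb-2 (chromosome III, 4015910 to 4017627, minus strand) was at 1310, 1432 and 1871 CPM in DTCs at late L3, 1479, 1404 and 1899 CPM at early L4, 813, 780 and 759 CPM at late L4, and 738, 757 and 751 CPM in adults. In other cells it was at 1184, 1101 and 853 CPM at late L3, 692, 652 and 665 CPM at early L4, 636, 679 and 634 CPM at late L4, and 637, 667 and 567 CPM in adults. The gap was widest at early L4, 2.38-fold (log2 fold change 1.25 ± 0.19, adjusted p = 0.000115). At late L3 the value of 0.56 missed the threshold (adjusted p = 0.0561), and at late L4 and in adults it was 0.27 and 0.26 (adjusted p = 0.363 and 0.378). In DTCs tbb-2 fell 2.03-fold from early to late L4 (−1.02 ± 0.19, adjusted p = 0.0022) and its adult libraries stayed within 738 to 757 CPM.

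tbb-1 (chromosome III, 10740868 to 10742432, minus strand), its close relative, was not called between the fractions at any stage; the values ran from −0.37 at late L4 to 0.60 in adults (adjusted p 0.0792 to 0.3). With median-ratio size factors it was called lower at late L3 (−0.66, adjusted p = 0.0448) and higher in adults (0.67, adjusted p = 0.0416). DESeq2 called it lower at late L3 (adjusted p = 0.00527) and late L4 (−0.58, adjusted p = 0.0185) and higher in adults (adjusted p = 0.00497), and with the 2 groups fitted alone it was higher at early L4 (0.47, adjusted p = 0.027). It was at 359, 402 and 408 CPM in DTCs at late L3, 370, 410 and 482 CPM at early L4, 279, 259 and 228 CPM at late L4 and 471, 330 and 504 CPM in adults. In other cells its libraries ran from 243 to 580 CPM. From late L4 to adulthood tbb-1 rose in DTCs (0.77 ± 0.22, adjusted p = 0.0284), a call lost without DTC sample 1, 2 or 3 of late L4 or DTC sample 1 or 3 of the adults (0.51 to 0.83, adjusted p 0.0523 to 0.206). It was also lost with no low-count filter (adjusted p = 0.15), with the 2 groups fitted alone (adjusted p = 0.0967) and without the 4 libraries (adjusted p = 0.0659). The per-kilobase ratio of tbb-2 to tbb-1 was 3.82 ± 0.55 (SD, n = 3) in DTCs at late L3 and 1.73 ± 0.43 in adult DTCs. In other cells its group means stayed between 2.02 and 2.12. Reads that match both genes make this ratio uncertain, as for tba-1 and tba-2.

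Of the 3 isotypes known best from neurons, mec-12 was abundant in DTCs, where mec-7 was not. MEC-12 and MEC-7 are the alpha- and beta-tubulin of the unusually thick microtubules of the touch receptor neurons, and MEC-12 carries the lysine that the acetyltransferase MEC-17 modifies. mec-12 was higher in DTCs at early L4, 6.19-fold, and in the mean of the 4 stages, 2.36-fold; mec-7 was lower in DTCs in that mean, 2.31-fold.

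mec-12 (chromosome III, 3131574 to 3139234, minus strand) was at 371, 403 and 912 CPM in DTCs at late L3, 845, 867 and 1114 CPM at early L4, 701, 719 and 1532 CPM at late L4, and 559, 471 and 427 CPM in adults. In other cells it was at 370, 421 and 30.3 CPM at late L3, 132, 180 and 144 CPM at early L4, 381, 405 and 50.9 CPM at late L4, and 369, 768 and 965 CPM in adults. The fractions were separate at early and late L4 and overlapped at late L3 and in adults. The log2 fold change at early L4 was 2.63 ± 0.73 (adjusted p = 0.0228) and at late L4 1.82 ± 0.71, which did not pass (adjusted p = 0.111) except with no low-count filter (adjusted p = 0.0382). The early L4 call was lost without DTC sample 3 or without sample 1, 2 or 3 of the other cells of that stage (2.26 to 2.88, adjusted p 0.0609 to 0.143). Without the 4 libraries named above, none of which is from early L4, the spread fitted for the gene was smaller and the early L4 value was 2.63 ± 0.29 (adjusted p = 5.95e-06). The mean of the 4 stages was 1.24 ± 0.35 (adjusted p = 0.0112). It was 0.73 ± 0.15 (adjusted p = 0.00182) without the 4 libraries. It lost its call without DTC sample 3 of late L3 (0.91, adjusted p = 0.0568), DTC sample 3 of late L4 (0.92, adjusted p = 0.0566) or sample 1 of adult other cells (0.96, adjusted p = 0.0508). An opposite-strand gene, Y53G8B.1, shares 76 bp (4.72%) of the exons of mec-12; it holds 2279 counts over all libraries.

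mec-7 (chromosome X, 7774856 to 7776689, minus strand) was at 31.2, 38.7 and 7.51 CPM in DTCs at late L3, 47.0, 30.3 and 50.2 CPM at early L4, 111, 80.5 and 14 CPM at late L4, and 53.3, 163 and 75.4 CPM in adults. In other cells it was at 134, 161 and 17.3 CPM at late L3, 55.4, 75.7 and 61.6 CPM at early L4, 173, 187 and 17.1 CPM at late L4, and 132, 252 and 357 CPM in adults. Only at early L4 did the fractions not overlap, with the DTCs lower. No single stage was called (values −2.01 to −0.60, adjusted p 0.121 to 0.675); the mean of the 4 stages was −1.2 ± 0.42 (adjusted p = 0.0337). That call was lost without DTC sample 2 of early L4, sample 1 or 2 of late L3, sample 2 of early L4, or sample 1 or 2 of late L4, the last 5 all of other cells (−1.09 to −1.16, adjusted p 0.0523 to 0.0621). Without the 4 libraries it was −1.23 ± 0.22 (adjusted p = 0.000452), and late L3 (−2.08 ± 0.49, adjusted p = 0.0148) and the adults (−1.34 ± 0.39, adjusted p = 0.0273) were called as well. With a replicate block within stage mec-7 was called at late L3 (−1.79 ± 0.36, adjusted p = 0.00946) and in adults (−1.39 ± 0.36, adjusted p = 0.0344), and with DESeq2 at late L3 (−2.31, adjusted p = 0.0272).

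In other cells the libraries lowest in mec-7 were also low in mec-17, which was at 135, 168 and 9.11 CPM at late L3 and 199, 210 and 29.3 CPM at late L4, and sample 3 was low for mec-12, mec-7 and mec-17 alike. The summed level of 9 touch receptor neuron markers, which include mec-17, was 23.3 to 527 CPM over the 12 libraries of other cells and 48.7 to 331 CPM over the 12 DTC libraries; in the mean of the 4 stages 1 marker was higher in DTCs (mec-2), 1 was lower (mec-17) and 7 were not called. mec-4, a touch channel subunit, was at 0 in 5 of the 12 DTC libraries and 4 of the 12 libraries of other cells. In DTCs sample 3 had the highest mec-12 of late L3 and of late L4, but mec-7 was at 7.51 and 14 CPM and mec-17 at 18.8 and 16 CPM there, the lowest of the 12 DTC libraries for both genes. The summed touch neuron markers of these samples were 48.7 and 103.8 CPM, against 59.2 to 177 CPM in samples 1 and 2 of the same stages. Not every such gene was low in them: mec-18 was at 17.7 CPM in sample 3 of late L3, against 3.05 and 3.36 CPM, and mec-2 at 81.8 CPM in sample 3 of late L4, against 53.2 and 56.5 CPM.

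The per-kilobase ratio of mec-12 to mec-7 kept to 1.70 to 2.96 in the 12 libraries of other cells, although mec-7 itself spanned 17.1 to 357 CPM in them. In DTCs the ratio was 10.1, 11.5 and 118 in the late L3 libraries, 17.5 to 27.7 in those of early L4, 6.12, 8.66 and 106 in those of late L4, and 2.80 to 10.2 in the adult ones. All 9 larval DTC libraries were above all 12 libraries of other cells; adult DTC sample 2, at 2.80, was within their range. These ratios are a description of the libraries, with no test.

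tbb-4 (chromosome X, 9434452 to 9436893, minus strand), a beta-tubulin of ciliated sensory neurons, was near the limit of these libraries, with 253 counts summed over the DTC libraries and 832 over those of other cells. Its level ran from 0 to 10.8 CPM in DTCs and from 0.0458 to 20.6 CPM in other cells, where the adult libraries were at 3.19, 13.6 and 20.6 CPM. The fractions overlapped at every stage, and the mean of the 4 stages, −1.01 ± 0.92, did not pass (adjusted p = 0.456). Of 18 ciliated neuron markers 1, dyf-1, was higher in DTCs in the mean of the 4 stages and 17 were not called; their summed level was 70.7 to 172 CPM in DTCs and 31.1 to 173 CPM in other cells.

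**Figure D3:**
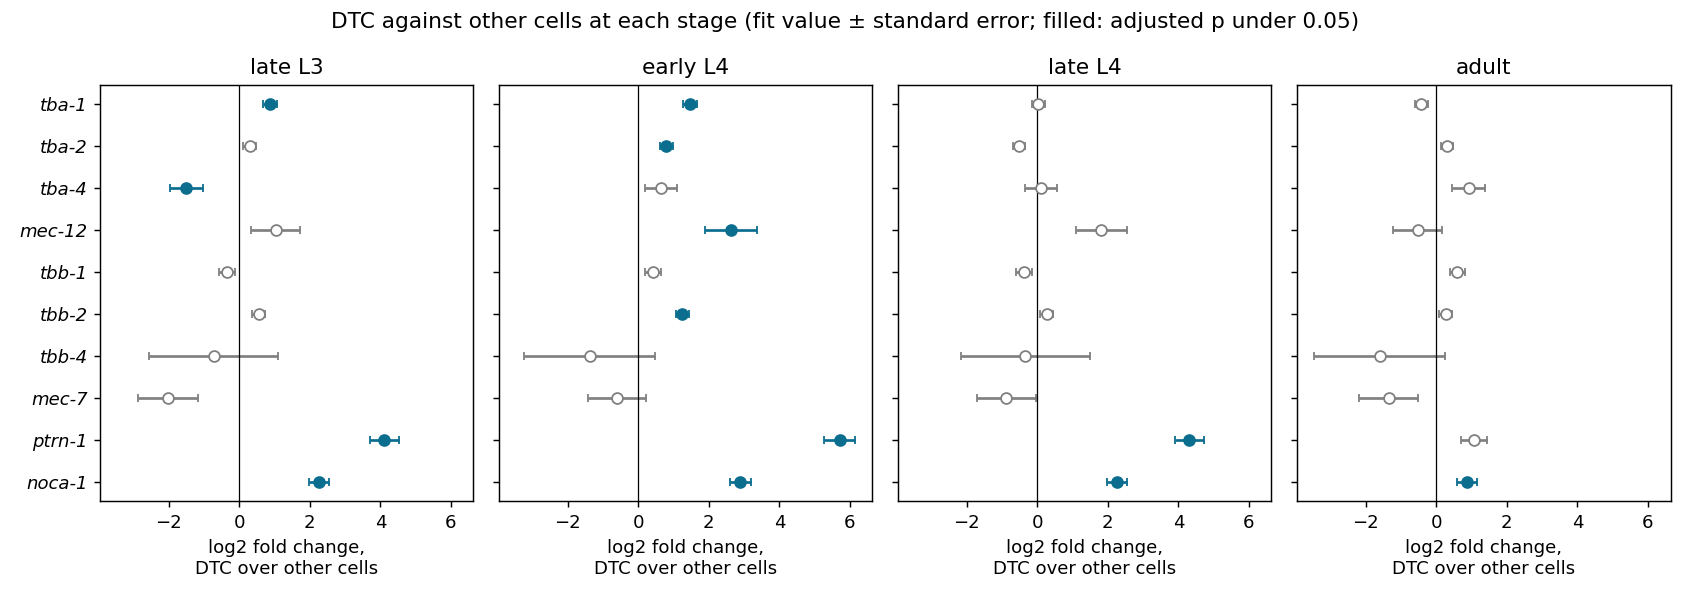
Log2 fold change, DTCs over other cells, of the 10 genes at each stage, with the standard error of the fit; filled points have an adjusted p under 0.05 over 16887 genes. ptrn-1 and noca-1 are the rightmost points of the 3 larval stages, and the widest error bars are those of tbb-4, mec-7 and mec-12.

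Counted by stage, late L3 had 3 of the 10 genes higher in DTCs and 1 lower, where 13.4% of all genes tested were called, 6.03% higher and 7.33% lower. At early L4 6 were higher and none lower (background 11%, of which 9.40% higher). At late L4 2 were higher (background 11.8%, of which 9.19% higher), and in adults 1 was (background 13.3%, of which 8.19% higher). In the mean of the 4 stages 5 were higher (ptrn-1, noca-1, mec-12, tbb-2 and tba-1) and 1 lower (mec-7), beside 30.6% of all genes (16.3% higher and 14.3% lower). Overlap was read on the TMM scale. With DTCs above, the libraries of the 2 fractions did not overlap for 5, 8, 4 and 5 of the 10 genes by stage. This held for 21%, 21.1%, 18.3% and 17.3% of all genes tested. DTCs were below for 2, 1, 1 and 1 of the 10, beside 15.9%, 27.9%, 18.8% and 9.24% of all genes. Without TMM factors tba-2, tba-4 and tbb-1 overlapped at early L4, and tbb-2 at late L4. In adults tba-2, tbb-1, tbb-2, ptrn-1 and noca-1 then overlapped. How the shares of all genes would change was not tested. The median log2 fold change of the 10 genes in the mean of the 4 stages was 0.36, against −0.14 for all genes.

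Small differences depend on the scaling. With median-ratio size factors in place of TMM the median of all genes in the mean of the 4 stages moved from −0.14 to −0.33, and 2254 genes were higher and 3369 lower in place of 2753 and 2410. The mean values of tba-1 and tbb-2 were then 0.30 and 0.40 in place of 0.49 and 0.59, and stayed past the threshold (adjusted p = 0.019 and 0.003045), while tba-2 moved from 0.22 to 0.03 and was not called under either. The mean of tba-1 lost its call without DTC sample 3 of early L4 (0.26, adjusted p = 0.0508).

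The isotype make-up of the alpha-tubulin mRNA differed between the DTC groups. As shares of the summed CPM per kilobase of exon of 9 alpha genes, mec-12 made up 25.1% ± 8.76 (SD, n = 3) of the total in late L3 DTCs, 38.3% ± 0.522 in early L4 DTCs, 57.9% ± 11.5 in late L4 DTCs and 35.6% ± 5.91 in adult DTCs. In other cells its mean share was 16.3%, 16.8%, 23.7% and 46.2% at the same stages, with library values from 2.81% to 54.3%. tba-1 made up 33.8% of the alpha total in DTCs at late L3 and 13.5% at late L4. tba-2 made up 39.1% in DTCs at late L3 and 24.2% at late L4, against 47.0% and 51.0% in other cells.

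Of the beta total of 5 genes, tbb-2 made up 77.9% ± 3.03 in late L3 DTCs, 76.9% ± 1.18 in early L4 DTCs, 70.1% ± 4.55 in late L4 DTCs and 55.7% ± 1.66 in adult DTCs. In other cells its means were 63.0%, 62.9%, 57.9% and 52.0%. mec-7 made up 1.36% to 7.05% in the DTC groups and 5.58% to 19.6% in the other cells. The alpha total over the beta total was 0.973 to 1.14 in the DTC libraries of late L3 and early L4. At late L4 it was 1.08, 1.13 and 2.00, the last in sample 3, in which mec-12 alone was 71.1% of the alpha total. Shares within a sum are bound to each other, and they are given with no test. They also carry the limit on reads that match both tba-1 and tba-2, or both tbb-1 and tbb-2.

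**Figure D4:**
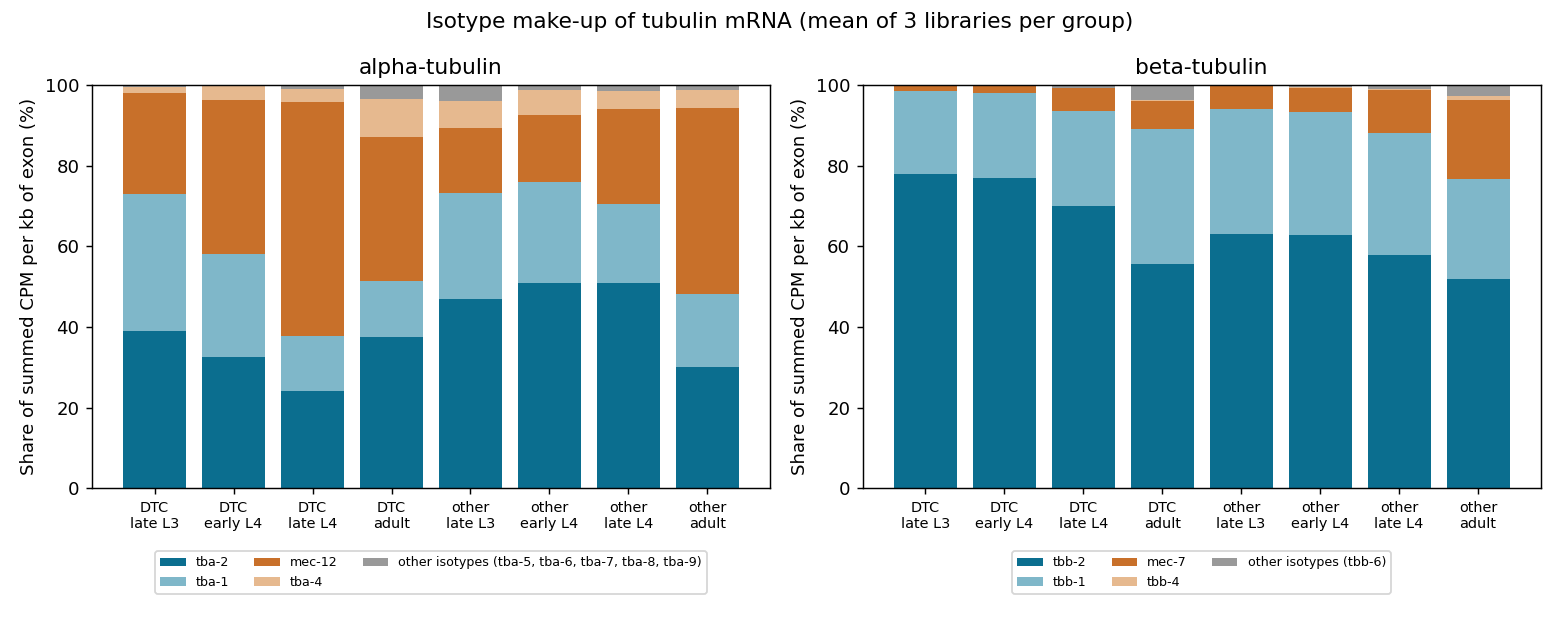
Share of each isotype in the summed CPM per kilobase of exon of the alpha-tubulin genes (left) and beta-tubulin genes (right), as stacked means of 3 libraries per group. mec-12 is the largest alpha segment in DTCs at early L4 (38.3%, tba-2 32.6%) and late L4 (57.9%) and in adult other cells (46.2%). tbb-2 is the largest beta segment in all 8 groups.

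Across the stages, no member was called in DTCs between late L3 and early L4 by edgeR (1 at an unadjusted p under 0.05; 1 by DESeq2, tba-4), where 2.00% of all genes were called. From early to late L4 3 of the 10 fell (tba-1, tba-2 and tbb-2) and none rose, beside 5.57% of all genes and 1.77% that fell. From late L4 to adulthood ptrn-1 fell (−2.92 ± 0.39, adjusted p = 0.000106), noca-1 fell (−1.39 ± 0.28, adjusted p = 0.00263) and tbb-1 rose, beside 12.8% of all genes (6.68% rose and 6.12% fell). In other cells edgeR called no member at any step. For late L3 to early L4 the count was 5 at an unadjusted p under 0.05 and 1 by DESeq2; for early to late L4 both were 0; for late L4 to adulthood they were 0 and 1. The backgrounds of these 3 steps were 0.361%, 2.09% and 6.71%. Leaving out sample 3 of other cells at late L3 alone, 4 members fell in other cells from late L3 to early L4: tba-1 (−1.03), tbb-1 (−0.83), tbb-2 (−0.85) and ptrn-1 (−1.3), with adjusted p 0.00462 to 0.0419. Without the 4 libraries these 4 and mec-12 fell at that step (−1.38 to −0.75, adjusted p 0.00719 to 0.0428), and mec-12 rose in other cells from early to late L4 (1.37 ± 0.30, adjusted p = 0.0143).

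The difference between the steps of the 2 fractions was tested in the same model. From early to late L4 tba-1 and tba-2 changed differently: the DTC step minus the step in other cells was −1.45 ± 0.27 (adjusted p = 0.0205) and −1.32 ± 0.25 (adjusted p = 0.0215). These were 2 of the 10 genes, beside 0.379% of all genes (0.213% in this direction). From late L4 to adulthood the difference was −3.25 ± 0.53 for ptrn-1 (adjusted p = 0.00179) and −1.39 ± 0.39 for noca-1 (adjusted p = 0.0369), beside 7.14% of all genes (3.80% in this direction). The differences of 0.82 for tba-2 (adjusted p = 0.0536) and 0.97 for tbb-1 (adjusted p = 0.0662) did not pass. With median-ratio size factors they were 1.11 (adjusted p = 0.0139) and 1.25 (adjusted p = 0.0194) and passed, as they did with DESeq2 and on leaving out some single libraries of late L4 or adults. In other cells the same step was 0.33 ± 0.37 for ptrn-1 and 0.00 ± 0.27 for noca-1. From late L3 to early L4 edgeR called no member (5 at an unadjusted p under 0.05, 1 by DESeq2; background 0.497%). Without the 4 libraries ptrn-1 and mec-12 were called there (2.44 ± 0.42, adjusted p = 0.00485, and 2.67 ± 0.43, adjusted p = 0.00331).

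The other genes of the microtubule system were read from 7 lists, and the list of motors and their partners had the most members higher in DTCs. This list holds 26 genes for kinesins, dyneins and their cofactors, and with them unc-83, unc-84 and zyg-12 of the nuclear envelope, which are not motors. Of the 26, 16 were higher in DTCs in the mean of the 4 stages, none was lower and 10 were not called. The median log2 fold change was 0.55. Of all genes tested 16.3% were higher and 14.3% lower. With median-ratio size factors 13 were higher, and without the 4 libraries 15 were higher and 1 lower; leaving out 1 library at a time gave 11 to 16 calls. The largest were klp-4, a kinesin-3 (3.86 ± 0.39, adjusted p = 1.93e-07), and unc-83, whose protein links nuclei to kinesin during nuclear migration (3.54 ± 0.19, adjusted p = 4.6e-11). klp-20, a kinesin-II motor subunit, followed (2.05 ± 0.33, adjusted p = 6.76e-05).

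klp-4 stood at 387 ± 95.0 CPM (SD, n = 3) in DTCs at late L3, 1535 ± 195 CPM at early L4, 1996 ± 245 CPM at late L4 and 257 ± 77.6 CPM in adults, against group means of 39.0 to 60.4 CPM in other cells. unc-83 was at 1135, 1348, 1052 and 133 CPM in the same DTC groups and at 42.3 to 120 CPM in other cells. Both fell in DTCs from late L4 to adulthood, as ptrn-1 and noca-1 did (klp-4 −2.96 ± 0.74, adjusted p = 0.0116; unc-83 −2.98 ± 0.38, adjusted p = 6.0e-05).

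Plus-end and lattice regulators had 8 of 17 tested members higher in DTCs and 2 lower, with a median of 0.26, beside 16.3% and 14.3% of all genes. The CLASP genes led: cls-3 (3.01 ± 0.43, adjusted p = 1.85e-05) and cls-1 (2.32 ± 0.22, adjusted p = 1.35e-07), followed by elp-1, an EMAP-like protein (1.90 ± 0.59, adjusted p = 0.0188). cls-3 was at 101, 140, 188 and 28.0 CPM in DTCs from late L3 to adulthood and at 9.60 to 15.6 CPM in other cells. Organising centre genes split: 3 of 12 were higher and 3 lower, with a median of 0.01, or 2 higher and 4 lower with a median of −0.18 under median-ratio size factors; of all genes 30.6% were called in either direction. The lower ones included the mitotic kinase air-1 (−1.05 ± 0.26, adjusted p = 0.00489) and the centrosome scaffold spd-5 (−0.90 ± 0.14, adjusted p = 5.34e-05). The largest of the higher ones, spc-1 (1.63 ± 0.14), encodes alpha-spectrin, a protein of the membrane skeleton that does not belong to organising centres and was listed there in error. Germline markers were also lower in DTCs in the mean of the 4 stages (11 of 17 listed, none higher). Their summed level was nevertheless higher in DTCs at late L3, 2315 to 2628 CPM against 1186 to 1929 CPM in other cells. At early L4 the fractions overlapped (1513 to 1892 and 1823 to 2389 CPM). DTCs were lower at late L4 (1219 to 1433 against 2266 to 3432 CPM) and in adults (951 to 2318 against 3542 to 6577 CPM). The part of these markers in the values of air-1, spd-5, tba-1 and tba-2 was not tested.

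Tubulin folding genes had 3 of 21 higher in DTCs and none lower (median 0.04), near the 16.3% of all genes that were higher, and with median-ratio size factors 2 were higher and 2 lower (median −0.15). The 3 were coel-1, a relative of tubulin cofactor E (2.50 ± 0.24, adjusted p = 1.19e-07), tbca-1, tubulin cofactor A (1.07 ± 0.17, adjusted p = 6.83e-05), and the prefoldin subunit pfd-3 (0.41 ± 0.14, adjusted p = 0.0259). From late L4 to adulthood 7 of the 21 fell in DTCs and none rose, beside 6.12% of all genes that fell and 6.68% that rose. They were coel-1 and 6 subunits of the chaperonin that folds actin and tubulin, cct-1, cct-2, cct-4, cct-5, cct-6 and cct-7, whose log2 fold changes lay between −1.15 and −0.81. Leaving out 1 library at a time gave 5 to 7 calls.

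Tubulin modification genes had 2 of 10 tested members higher and 1 lower, with a median of 0.30; these 3 of 10 were near the 30.6% of all genes called. ttll-11, a polyglutamylase of the tubulin tyrosine ligase family, was higher (2.99 ± 0.88, adjusted p = 0.0139), at 52.1 CPM in DTCs at early L4 and 48.3 CPM at late L4 but 4.25 and 4.29 CPM at late L3 and in adults. The acetyltransferase atat-2 was higher (1.01 ± 0.34, adjusted p = 0.0309) and mec-17 lower (−1.09 ± 0.40, adjusted p = 0.0443). Without the 4 libraries none was higher and 1 was lower. Of 3 severing genes mei-2, a katanin subunit, was lower (−0.71 ± 0.23, adjusted p = 0.0248; not called without the 4 libraries). Of the 6 other tubulin genes tba-6 was lower (adjusted p = 0.0126) at a very low level, at most 0.956 CPM in DTCs and 2.82 CPM in other cells, with 59 and 288 counts summed; it too was not called without the 4 libraries.

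**Figure D5:**
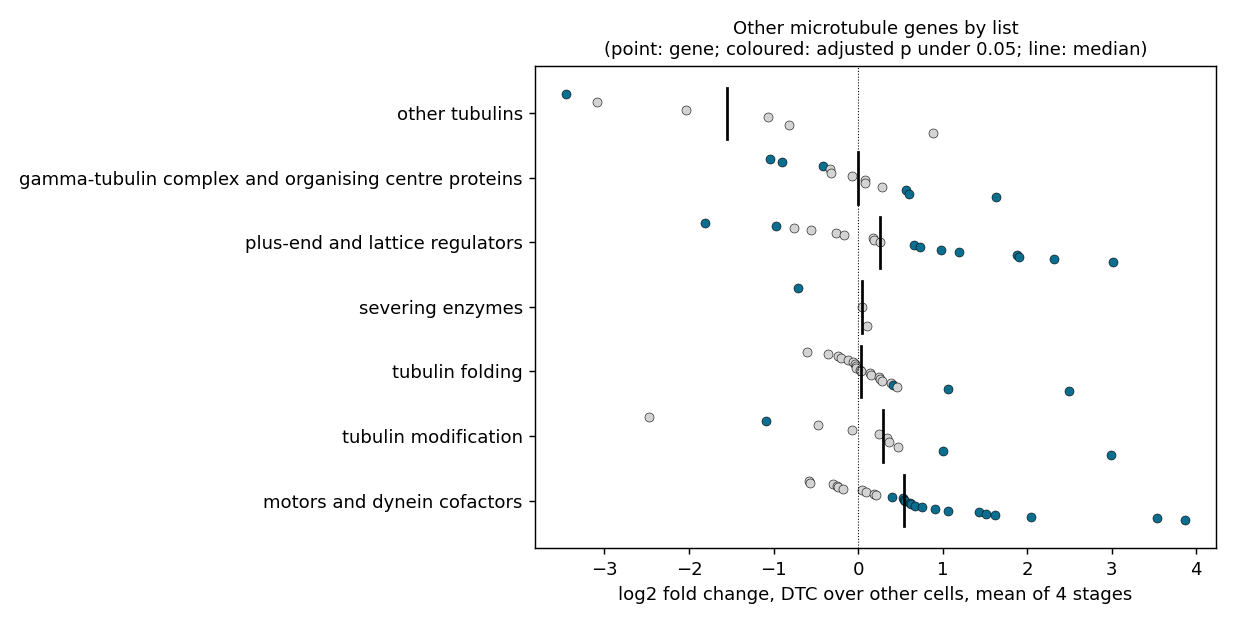
Log2 fold change, DTCs over other cells in the mean of 4 stages, of each tested gene of the 7 lists (points; coloured where the adjusted p is under 0.05), with the list's median as a vertical line. In the list of motors and dynein cofactors 16 of 26 points are coloured, all to the right of 0; the organising centre list has 3 coloured points on each side.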

How the data were processed

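The authors deposited 1 table of raw read counts per gene, with 46778 gene IDs and 24 sample columns, all of which were used. Per the submitters' processing notes, FastQC, cutadapt, Bowtie2 and HTSeq were used with the ce11 build; which versions were run, and whether counting used strand, is not given in the sources used here. Positions come from Ensembl release 115 (WBcel235, the same assembly). Symbols were found for 43818 IDs.

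Genes were filtered with filterByExpr in edgeR 4.0.16 (R 4.3.3, limma 3.58.1), which left 16887. After TMM scaling, a quasi-likelihood model of 8 group means was fitted to all 24 libraries, with no replicate block (common biological coefficient of variation 0.835). Genes with a Benjamini-Hochberg adjusted p under 0.05, over all genes tested, were called in each of 14 comparisons. Whether equal sample numbers pair the fractions was checked by the correlation of deviations from the group means. At late L3 all 3 pairs were over 0.1 (0.115 to 0.248), and at the other stages not every pair was. DTC sample 1 of late L3 had 0.160 with its own number but 0.162 with another. The check therefore does not settle whether the numbers pair the samples. The labels do not say what a number shares. Errors after log2 fold changes are standard errors. CPM values are scaled by TMM, with factors from 0.601 (adult DTC sample 3) to 1.47 (sample 2 of other cells at early L4). They are relative levels and not plain shares of a library's counts. Overlap and separation of libraries refer to this scale. Counting limits precision for low genes: 1 count is a small part of the totals of 8391423 to 18045720.

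The genes, the lists of other microtubule genes and markers, and the tests were chosen with earlier results of these data known. The 10 genes are named throughout. From each list the 3 genes with the largest change among those called in the mean of 4 stages are named. For ptrn-1 and noca-1 the 5 genes most alike are named. Of the listed genes 1 had no matching symbol. Alternatives were median-ratio (RLE) size factors, DESeq2 1.42.0, no low-count filter, a block for the sample number, a fit of the compared groups alone, each library left out and, added after the data were seen, 4 libraries left out together. For group mean levels only, plain library totals were also tried. For isotype shares, coding length was tried in place of exon length. The scripts were tested on simulated data.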

Additional observations from a re-analysis of the deposited data

Results flagged for a closer look

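For 4 results the change between consecutive stages differed between DTCs and other cells by a test of the difference itself. The log2 change from early to late L4, DTCs minus other cells, was −1.45 ± 0.27 for tba-1 (adjusted p = 0.0205); tba-1 went from 507 to 728 CPM to 196 to 206 CPM in DTCs and from 207 to 215 CPM to 191 to 201 CPM in other cells. For tba-2 it was −1.32 ± 0.25 (adjusted p = 0.0215), with 728 to 1006 CPM and then 376 to 423 CPM in DTCs, against 437 to 508 CPM and then 541 to 591 CPM in other cells.

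Both calls were lost on leaving out any 1 of several libraries. That of tba-1 was lost without DTC sample 3 of early L4, DTC sample 2 or 3 of late L4, sample 1, 2 or 3 of other cells at early L4 or sample 1 of other cells at late L4 (−1.26 to −1.54, adjusted p 0.0505 to 0.0859). That of tba-2 was lost without DTC sample 3 of early L4 or of late L4, sample 1 or 3 of other cells at early L4 or sample 1 of other cells at late L4 (−1.15 to −1.43, adjusted p 0.0505 to 0.0706). With no low-count filter neither was called (adjusted p = 0.208 and 0.237), and without the 4 libraries the difference of tba-2 was not (adjusted p = 0.08).

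From late L4 to adulthood the difference was −3.25 ± 0.53 for ptrn-1 (adjusted p = 0.00179), which kept its call under every alternative tried. For noca-1 it was −1.39 ± 0.39 (adjusted p = 0.0369). This call was lost without any 1 DTC library of late L4 or of the adults, or sample 1 or 2 of other cells at late L4, or sample 1 or 3 of adult other cells (−1.15 to −1.50, adjusted p 0.0501 to 0.118). It was also lost with RLE size factors (−1.1, adjusted p = 0.0844), no low-count filter (adjusted p = 0.0829) and the compared groups alone (adjusted p = 0.0558).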

How the results depend on the processing

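No result reversed its direction past the threshold under any alternative. The calls of ptrn-1 and noca-1 at the 3 larval stages, of tba-1 and tbb-2 at early L4, of tbb-2 in the mean, of the DTC falls of tba-1, tba-2 and tbb-2 from early to late L4, and of ptrn-1 and noca-1 from late L4 to adulthood held under every alternative run. Of the tests of single members, 76 lost and 66 gained a call and 1938 did neither; where no cause is given, the cause was not tested.

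DESeq2 called more genes: 3999, 2960, 3330 and 3980 between the fractions from late L3 to adulthood, 1711, 2052 and 3854 at the 3 DTC steps, 556, 1063 and 3026 at the steps of other cells, and 630, 336 and 2603 for the differences of steps. Of the 10 members it called 4 at late L4, 4 in adults, 5 at the DTC step to adulthood, 4 for the difference of that step, and 1 each for the DTC step, the other-cell step and the difference from late L3 to early L4 and the other-cell step to adulthood. With RLE size factors 3 members were called in adults and 1 at the other-cell step to adulthood. With no low-count filter 885, 159 and 149 genes were called for the DTC step, the other-cell step and the difference from late L3 to early L4. Members called were then 0 between adult fractions, 0 for the difference from early to late L4 and 1 for that to adulthood. With only the groups compared, genes called were 1336, 4376 and 347 at late L3, early L4 and adulthood, 823 and 1604 at the first 2 DTC steps, 2, 966 and 630 at the steps of other cells, and 186 and 540 for the last 2 differences. Members called were then 0 between adult fractions and 1 each for the DTC step and the difference from late L3 to early L4 and the difference to adulthood. Without the 4 libraries, genes called were 1157 at late L3, 911 at the first DTC step, 1625, 584 and 1880 at the steps of other cells and 418 for the first difference. Members called were then 3 between adult fractions, 2 at the first DTC step, 5 and 1 at the first 2 steps of other cells, and 2 and 1 for the first 2 differences.

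With a replicate block for the sample number 213, 38 and 41 genes were called for the DTC step, the other-cell step and the difference from late L3 to early L4, and all other counts stayed within 1.5 times. Deviations of same-numbered samples from their group means had correlations of −0.0579 to 0.248 in 12 pairs, and 7 of 12 were highest with their own number. With the replicate block set within stage, mec-12 was not called at early L4 or in the mean (adjusted p = 0.108 and 0.0592), nor tba-4 at late L3 (adjusted p = 0.0596), nor noca-1 in adults (adjusted p = 0.0781).

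Leaving out 1 library at a time, genes called between the fractions ran from 1142 to 1841 at late L3, 1061 to 1574 at early L4, 1112 to 1655 at late L4, 1134 to 2314 in adults and 4272 to 5670 in the mean. Members ran from 3 to 4, 4 to 6, 2 to 3, 0 to 1 and 5 to 7. At the DTC steps genes ran from 19 to 410, 469 to 785 and 1221 to 1950 (members 0 to 0, 3 to 3 and 2 to 3). At the steps of other cells they ran from 14 to 1389, 170 to 283 and 428 to 1230 (members 0 to 4, 0 to 0 and 0 to 1). For the differences they ran from 13 to 193, 26 to 55 and 405 to 1196 (members 0 to 0, 0 to 2 and 1 to 3). tbb-4 and tba-6 were among the genes limited by depth, with at most 199 and 71 counts in a library.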

Other observations

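Other isotypes, chosen after their values were seen, showed patterns by stage. The alpha-tubulin gene tba-8 was at 91.3, 87.3 and 3.43 CPM in other cells at late L3 and at 2.38, 7.73 and 0 CPM in DTCs of that stage. It was at or below 3.10 CPM in every library of the later stages. The beta-tubulin gene tbb-6 was at 48.4, 60.7 and 34.9 CPM in adult DTCs, above the 9 larval DTC libraries (0 to 15.1 CPM), and at 9.88, 75.5 and 17.7 CPM in adult other cells. Neither was called between the fractions in the mean of the 4 stages.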
